A study of Homo sapiens with 9 samples.

Results

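The comparison described here set 3 Affymetrix arrays of LNCaP cells given 1 nM R1881 together with 20 µM gedunin against 3 arrays labelled as given 1 nM R1881 and DMSO. The 6 arrays were chosen by their titles from the 9 arrays of the series, and the other 3 are labelled as given ethanol and DMSO, the vehicle, for 24 h. LNCaP is an androgen-responsive line from a metastasis of human prostate cancer, and R1881 is a synthetic androgen that the cells do not metabolise. All cultures had first spent 2 days in RPMI with 10% charcoal-stripped serum, which holds little steroid hormone. The labels give 24 h of treatment for the gedunin cultures. For the arrays labelled R1881 the titles say 6 h and the descriptions say 24 h, so their time is not settled. No solvent is named for the gedunin cultures, and gedunin without androgen was not analysed here. The 3 arrays of a group are marked as biological replicates, of 1 cell line.

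Gedunin is a limonoid from neem and its relatives in the mahogany family, and it lowers the function of HSP90, a chaperone that keeps steroid receptors and many kinases able to bind their ligands. Loss of HSP90 function frees HSF1, the factor that switches on heat shock genes. A second stress pathway runs through NRF2, which KEAP1 marks for degradation until reactive chemicals modify its cysteines. NRF2 then binds antioxidant response elements at genes for glutathione, NADPH and the removal of quinones and aldehydes. Unfolded protein in the endoplasmic reticulum (ER) acts through ATF6, IRE1 with XBP1, and PERK, and PERK shares ATF4 with other stress kinases. In prostate cells androgen raises KLK2, KLK3, TMPRSS2 and FKBP5 and holds down genes such as UGT2B17 and CAMK2N1.

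Intensities are linear values per probe set, and each of 11963 genes is represented by its brightest probe set. Other probe sets of a gene can show another size of change, and their range is given for some genes only. Array medians over all probe sets lay between 52.4 and 54.5, and a group mean under 52.4 is called dim here, since folds against it are approximate. Across genes, log2 values correlated with r of 0.996 to 0.998 within groups and 0.980 to 0.981 between the gedunin arrays and those labelled R1881. As a measure of RNA integrity, the 3' minus 5' difference of the ACTB controls averaged 0.125 ± 0.0279 on the gedunin arrays and 0.180 ± 0.0683 on the arrays labelled R1881 (log2, SD, n = 3). FKBP5 ran against the labels. It measured 109.5, 115 and 139.7 on the gedunin arrays and 43.3, 48.8 and 43.3 on the arrays labelled R1881, against 1796, 1970.5 and 1679 on the arrays labelled vehicle. The group labelled R1881 was dim and the one labelled vehicle the brightest. Androgen is known to raise this gene, so the labels R1881 and vehicle may be exchanged, and every direction below is stated by label. Of 373 genes named by a rule 372 were called in this comparison, and against the arrays labelled vehicle 197 of them were called the same way, 72 the other way and 103 not at all. For the 72, those described below are given with their log2 fold change or intensities for that label. A gene described without one was called the same way or not called there, and its size may differ. Both use the same 3 gedunin arrays. In cultured cells measured in bulk, fewer cells of a kind and less RNA per cell cannot be told apart.

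Markers of luminal prostate cells were present on all 6 arrays. KRT18, a luminal keratin, measured 3971, 3971 and 4012 on the gedunin arrays and 1925, 2107 and 1851 on the arrays labelled R1881, and FOXA1, a luminal pioneer factor, 387, 343 and 375 on the gedunin arrays and 464, 461 and 498 on the arrays labelled R1881. The summed intensity of 12 luminal markers lay between 18173 and 19407 on the gedunin arrays and between 9635.8 and 10025 on the arrays labelled R1881. Of the 12, 6 rose and 4 fell, and the androgen target KLK3 alone averaged 7215.5 and 1341 in these groups. The sum on the arrays labelled vehicle was 32257 to 34758. Against that label 9 of the 12 were lower and 3 higher on the gedunin arrays. Of 8 basal markers 6 were dim in both groups, with sums of 369 to 388 and 348 to 371. The neuroendocrine sum of 16 genes was 1558 to 1585 against 5236 to 5551, and 9 of the 16 were dim in both groups. The members that fell most were DDC (-2.80) and NTS (-1.37), both also listed as androgen-repressed. The fibroblast sum of 13 genes was 1352 to 1377 against 2106 to 2375, where FN1, which encodes fibronectin, was the 1 member that fell (-1.29). Leukocyte genes, 8 of 11 dim in both groups, summed to 889 to 896 against 725 to 809. KRT18 (-1.11) was lower than on the arrays labelled vehicle, and NTS (0.37) and FN1 (0.62) were higher. The part of these markers in the results was not tested.

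Of 11963 genes, 3277 (27.4%) differed between the gedunin arrays and those labelled R1881 in limma with a Benjamini-Hochberg adjusted p under 0.05, and such genes are said to have risen or fallen. The split was near even, with 1676 higher (14.0%) and 1601 lower (13.4%). Most changes were small, and 1162 of the higher and 1260 of the lower genes moved by less than 1.5-fold. Past 2-fold, 197 genes rose (1.65%) and 100 fell (0.836%), together 2.48%. Past 4-fold the counts were 24 and 19, and past 8-fold 6 and 5. The median log2 fold change of all genes was -0.0087. Without any test, the 3 gedunin arrays lay wholly above the 3 labelled R1881 for 2197 genes (18.4%) and wholly below for 2299 (19.2%). The 25 largest rises and 25 largest falls described below were taken only from called genes whose arrays do not overlap. For those genes, lack of overlap follows from the choice and is no further evidence. Where limma called 0 members of a list in a direction, the count at an unadjusted p under 0.05 was 0 as well unless another is given. Bright genes were called more often, from 5.95% of the 2991 dimmest genes to 57.5% of the 2991 brightest. The shares of all genes set beside the lists below do not allow for brightness. Against the arrays labelled vehicle 3219 genes were called (26.9%), 1800 higher (15.0%) and 1419 lower (11.9%).

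**Figure D1:**
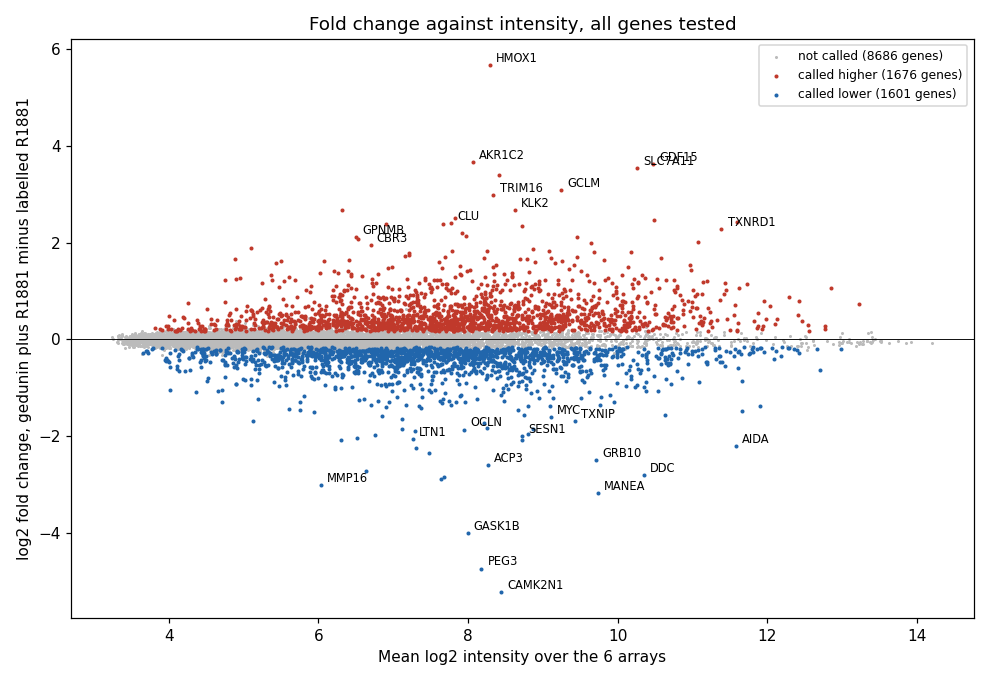
Each point is 1 of 11963 genes, with its mean log2 intensity over the 6 arrays on the x axis and its log2 fold change, gedunin plus R1881 minus labelled R1881, on the y axis, where red marks called higher (1676), blue called lower (1601) and grey not called. HMOX1 at 5.67 and CAMK2N1 at -5.22 mark the ends, and 6 rises and 5 falls lie past 8-fold.

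The oxidative and electrophile response held the largest rises. HMOX1, haem oxygenase, which breaks haem into iron, carbon monoxide and biliverdin, measured 2861, 2039.8 and 1936 on the gedunin arrays and 41.0, 47.6 and 43.6 on the arrays labelled R1881. The groups lay far apart, and since the second group was dim the 51.1-fold rise is approximate (log2 5.67 ± 0.13, SE, limma adjusted p = 7.40e-12). BLVRB, biliverdin reductase B, rose by 1.06 on the log2 scale. ALAS1, which starts haem synthesis, rose by 1.14, and FECH, which puts iron into haem, by 0.91. The transferrin receptor TFRC, which imports iron, rose by 0.63. Of 13 measured genes of haem and iron, 11 rose, with a median of 0.54. UROD, an earlier step of haem synthesis, fell (-0.30).

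Of 5 genes for cystine uptake and glutathione synthesis, 4 rose. SLC7A11, the light chain of the cystine antiporter, measured 4225, 4373 and 3961 on the gedunin arrays and 347, 364 and 363 on the arrays labelled R1881. Its partner chain SLC3A2 measured 1516, 1500.4 and 1389 on the gedunin arrays and 324, 347 and 344 on the arrays labelled R1881. GCLM, the modifier subunit of the enzyme that begins glutathione synthesis, measured 1874, 1792 and 1651 on the gedunin arrays and 213, 198 and 209.8 on the arrays labelled R1881. All 3 genes showed no overlap between groups, with rises of 11.7-fold, 4.34-fold and 8.57-fold (limma adjusted p = 7.14e-13, 3.36e-11 and 3.49e-11). The catalytic subunit GCLC rose less, by 1.06 ± 0.062 (log2, SE). Of the genes that use or recycle glutathione, GLRX2, a mitochondrial glutaredoxin, rose by 0.93, while it was lower than on the arrays labelled vehicle (-0.41). In all, 10 of 25 members rose, and GSS, the last step of synthesis, fell by 0.17 on the log2 scale. That small fall lost its call in 9 of 14 alternatives.

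Among quinone reductases and the thioredoxin system, 11 of 19 rose and 5 fell. NQO1, which reduces quinones in one step, measured 4301, 4436 and 4290.5 on the gedunin arrays and 1101, 1072 and 1042 on the arrays labelled R1881. CBR3, a carbonyl reductase, measured 207, 213 and 192 on the gedunin arrays and 50.7, 53.8 and 53.8 on the arrays labelled R1881. TXNRD1, the cytosolic thioredoxin reductase, measured 5863, 6052 and 5848 on the gedunin arrays and 1223, 1256 and 1158 on the arrays labelled R1881, a 4.89-fold rise (limma adjusted p = 2.24e-11). NQO2 (1.15) and CBR1 (0.96) rose as well, all without overlap. TXNIP, which binds and blocks thioredoxin, moved the other way. It measured 360.0, 385 and 409.9 on the gedunin arrays and 1277, 1262 and 1196 on the arrays labelled R1881, a 3.24-fold fall. Mitochondrial PRDX3 (-0.49) and catalase, CAT (-0.41), fell, though CAT was higher than on the arrays labelled vehicle (0.23). Probe sets of PRDX3 ran from -0.49 to 0.034. The count of falls was 3 without the second gedunin array, and also 3 without the second array labelled R1881.

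Aldehyde and steroid reductases of the AKR1C group rose steeply. AKR1C2 measured 1033, 988 and 839.8 on the gedunin arrays and 85.3, 77.1 and 64.4 on the arrays labelled R1881, and AKR1C1 1138, 1205 and 991 on the gedunin arrays and 115, 105 and 96.4 on the arrays labelled R1881. These genes are near-identical copies and their probe sets may share transcripts, and those of AKR1C1 ran from 0.14 to 3.40. UGDH, which makes UDP-glucuronic acid, rose by 1.83, and ALDH3A2, which oxidises fatty aldehydes, by 1.54. ALDH1A3, a retinaldehyde dehydrogenase also listed as androgen-induced, rose by 1.71 and was lower than on the arrays labelled vehicle (-0.76). Of 15 members 8 rose and 0 fell in limma. The median of 0.61 became 1.54 when dim genes were removed, which leaves fewer members.

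NADPH supply split by enzyme. ME1, malic enzyme, measured 3309, 3537 and 3289 on the gedunin arrays and 626, 596 and 597 on the arrays labelled R1881, a 5.57-fold rise (limma adjusted p = 5.84e-12). Log2 fold changes of the ME1 probe sets ran from 0.12 to 2.84. PGD (1.54), TKT (1.27) and TALDO1 (1.20), the pentose phosphate enzymes, rose together, as did IDH1 (1.01). MTHFD1, a folate enzyme, fell (-0.77), as did mitochondrial ME2 (-0.43). By the other label IDH1 was lower (-0.21) and ME2 higher (0.53). Most regulators of the pathway rose too. NFE2L2, which encodes NRF2, measured 368, 358 and 358 on the gedunin arrays and 221, 248 and 259 on the arrays labelled R1881, and KEAP1 303, 282 and 322 on the gedunin arrays and 205, 220.2 and 188 on the arrays labelled R1881. Both rose, by 0.58 ± 0.063 and 0.57 ± 0.072 (log2, SE). SQSTM1, a selective autophagy receptor that also binds KEAP1, rose by 1.68. TRIM16, a ubiquitin ligase of that list, measured 954, 926 and 867 on the gedunin arrays and 126, 85.4 and 141 on the arrays labelled R1881. The groups did not overlap, and the rise was 7.97-fold. In all 7 of 10 regulators rose and 0 fell in limma.

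Promoters of 4 of these genes, chosen because they hold a match, show the antioxidant response element core, which NRF2 binds. They are the 250 bases before the gene start, from RefSeq on GRCh38.p14, 5′ to 3′ on the gene's strand, with the core TGACNNNGC or its reverse complement in capitals.
GCLM: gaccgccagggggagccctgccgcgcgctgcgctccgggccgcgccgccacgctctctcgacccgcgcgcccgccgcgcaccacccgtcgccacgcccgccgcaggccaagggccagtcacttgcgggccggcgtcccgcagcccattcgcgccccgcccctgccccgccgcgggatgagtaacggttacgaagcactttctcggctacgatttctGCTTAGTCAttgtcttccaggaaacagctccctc
TXNRD1: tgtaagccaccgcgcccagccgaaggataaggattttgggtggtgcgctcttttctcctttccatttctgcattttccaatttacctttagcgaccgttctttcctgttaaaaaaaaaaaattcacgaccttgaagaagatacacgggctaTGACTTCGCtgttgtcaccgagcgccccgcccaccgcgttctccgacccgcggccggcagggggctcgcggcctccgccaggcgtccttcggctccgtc
ME1: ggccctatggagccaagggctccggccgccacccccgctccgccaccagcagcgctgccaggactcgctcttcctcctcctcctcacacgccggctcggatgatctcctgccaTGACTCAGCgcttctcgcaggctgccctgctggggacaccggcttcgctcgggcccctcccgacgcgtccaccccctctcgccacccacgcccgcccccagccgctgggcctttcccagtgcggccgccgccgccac
SLC3A2: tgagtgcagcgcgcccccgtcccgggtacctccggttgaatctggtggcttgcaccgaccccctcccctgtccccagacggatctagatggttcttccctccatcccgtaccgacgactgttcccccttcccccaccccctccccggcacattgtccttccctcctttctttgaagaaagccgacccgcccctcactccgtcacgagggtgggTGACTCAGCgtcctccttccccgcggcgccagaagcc
GCLM lies at chr1:93909431-93909680 on the minus strand, TXNRD1 at chr12:104215529-104215778 on the plus strand, ME1 at chr6:83431052-83431301 on the minus strand and SLC3A2 at chr11:62881449-62881698 on the plus strand. Searched on both strands over 300 bases, 250 before and 50 after the start, the core was found in 13.6% of 27305 promoters, 1 per symbol. It was in 14.9% of the 9563 tested genes with a promoter, in 33 of 165 genes that rose at least 2-fold (20.0%) and in 10 of 78 that fell at least 2-fold (12.8%). In ME1 and SLC3A2 the matched letters also spell TGACTCA, the site of AP-1 factors. A match describes the letters of a window and does not show binding. The other motifs given here were searched in the same way. The table has no promoter for HMOX1. PGD also held the core, but no match was found for SLC7A11, NQO1, CBR3, AKR1C1, AKR1C2 or TRIM16. Whether each of these lacks the core or lacks a promoter in the table is not given here.

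Export pumps and metal handling were mixed. ABCC4 (1.80) and ABCC1 (1.23), which export conjugates, rose, and both were lower than on the arrays labelled vehicle (-0.81 and -0.39). ABCB6, a porphyrin transporter, rose against both labels (1.35 and 1.02). Against labelled R1881 its probe sets ran from 0.001 to 1.35. ABCC10 (-0.53) and ABCC5 (-0.30, 0.41 against labelled vehicle) fell, and in all 4 of 10 pumps rose and 4 fell. With dim genes removed 2 fell. Metallothioneins, small proteins that hold zinc and copper, rose in 5 of 8 members, led by MT2A (0.64) and MT1G (0.60). They are near-identical copies, so these are not 5 independent readings. Of the zinc transporters, SLC39A7, which releases zinc from the ER, rose by 1.10 against a dim group, and SLC39A8, an importer, fell (-1.30). Probe sets of SLC39A8 ran from -1.52 to 0.017.

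Several of the 25 largest rises lie outside these pathways. CLU, a secreted chaperone, measured 537, 460.5 and 518 on the gedunin arrays and 97.2, 96.1 and 90.9 on the arrays labelled R1881. The groups lay far apart, while log2 fold changes of the CLU probe sets ran from 0.42 to 2.41. SLC19A2, a thiamine transporter, measured 468, 482 and 446 on the gedunin arrays and 80.7, 89.0 and 98.7 on the arrays labelled R1881, a 5.22-fold rise (limma adjusted p = 1.37e-10). GPNMB, a melanosomal glycoprotein, measured 205, 192 and 171 on the gedunin arrays and 45.3, 45.3 and 39.6 on the arrays labelled R1881. Its second group was dim. GDF15, a stress cytokine of the TGF-beta family, measured 5134, 4868 and 5006 on the gedunin arrays and 439, 413 and 370.0 on the arrays labelled R1881, with probe sets from 0.27 to 3.62. LPIN1, a phosphatidate phosphatase, measured 538, 500.2 and 537 on the gedunin arrays and 115, 115 and 130.3 on the arrays labelled R1881. GNMT, a glycine methyltransferase that uses S-adenosylmethionine, measured 252, 265 and 309 on the gedunin arrays and 52.1, 57.4 and 48.8 on the arrays labelled R1881. GNMT was higher still on the arrays labelled vehicle (746, 774 and 738), unlike the other 5 genes of this paragraph.

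**Figure D2:**
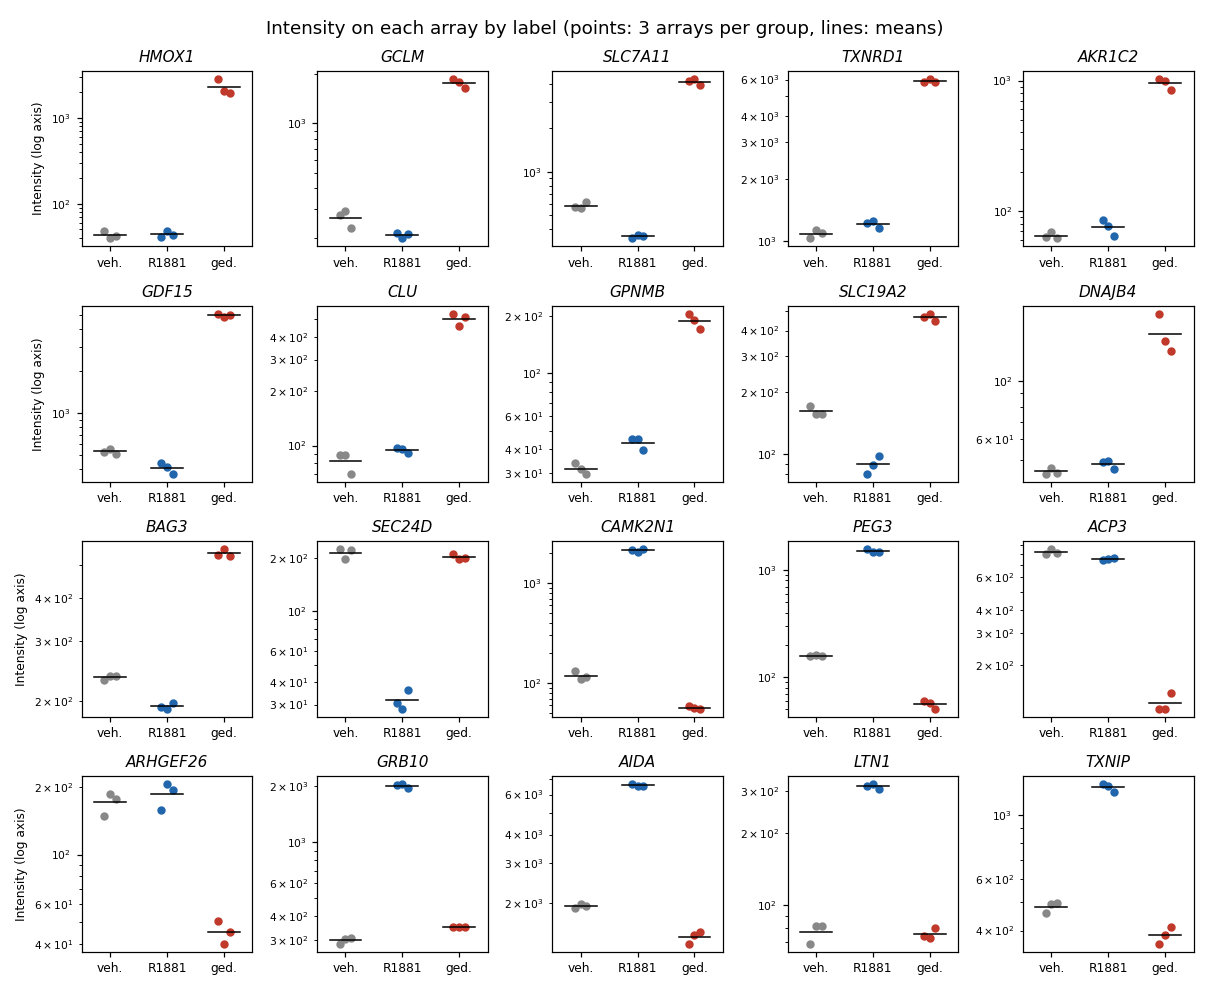
Each panel shows 1 gene, with the intensity of each of the 3 arrays per label on a log axis (grey labelled vehicle, blue labelled R1881, red gedunin plus R1881) and the mean as a line. HMOX1, GCLM, CLU and BAG3 are high on the gedunin arrays against both labels, ACP3 and ARHGEF26 are low against both, and SEC24D and LTN1 overlap the arrays labelled vehicle.

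The heat shock response held smaller rises. DNAJB4, an HSP40 co-chaperone of HSP70, measured 182, 143 and 130.3 on the gedunin arrays and 49.1, 49.6 and 46.2 on the arrays labelled R1881, where the second group was dim. BAG3, a nucleotide exchange factor that links HSP70 to autophagy, measured 538, 559 and 532 on the gedunin arrays and 192, 190.0 and 197 on the arrays labelled R1881. Neither gene's groups overlapped, and the rises were 1.64 ± 0.10 and 1.49 ± 0.051 (log2, SE, limma adjusted p = 3.78e-08 and 2.88e-10). HSPH1, an HSP70-like exchange factor, rose by 1.00, and DNAJB1, a stress-induced HSP40, by 0.90. HSPA13, which sits in the ER membrane, rose by 1.47, and its difference from the arrays labelled vehicle was -0.041 ± 0.12 (SE, not called). Of 22 HSP70, HSP40 and BAG genes, 14 rose, with a median of 0.30. BAG4, dim in both groups, fell (-0.33), and the count of falls was 2 without the first gedunin array or the first labelled R1881. HSPA1A and HSPA8 are not analysed here.

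Both cytosolic forms of HSP90 rose, by less than 2-fold. HSP90AA1, the stress-inducible cytosolic form, measured 12358, 12215 and 12514 on the gedunin arrays and 7282, 7447 and 7469.6 on the arrays labelled R1881. HSP90AB1, the constitutive form, measured 6730.2, 6438 and 6861 on the gedunin arrays and 5409, 5512 and 5287 on the arrays labelled R1881. They rose by 0.74 ± 0.053 and 0.31 ± 0.054 (log2, SE). Mitochondrial TRAP1 fell (-0.38). Among co-chaperones, the immunophilin PPID (0.51) and the adaptor STIP1 (0.49), which joins HSP70 to HSP90, rose. In all 8 of 17 rose and 1 fell, with FKBP5, an androgen-induced co-chaperone, among the rises (1.42). The small heat shock proteins HSPB8 (1.32) and HSPB1 (1.03) rose, the 2 of 10 members called. HSF1 transcript measured 105, 93.9 and 97.8 on the gedunin arrays and 98.6, 112 and 107 on the arrays labelled R1881, and its difference of -0.10 (95% interval -0.23 to 0.041) was not called. Folding machines of the cytosol and mitochondria were mixed. HSPE1 (0.60) and the protease LONP1 (0.65) rose, and CCT2 (-0.34) and VBP1 (-0.38) fell. Of 17 members 7 rose, or 4 without the first or without the third gedunin array.

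Transcripts of HSP90 client proteins did not share a direction. Of 20 clients, 3 rose and 4 fell, close to the shares of all genes, with a median of -0.036. CDK4 fell by 0.44 on the log2 scale and ERBB2 (-0.36, 0.50 against labelled vehicle) also fell. LYN (0.35) and HIF1A (0.26) rose. With probe sets averaged per gene 2 fell. These are transcripts, and protein levels of the clients were not measured. No heat shock element, in the form of 3 alternating GAA and TTC units set 2 bases apart, was found in the 300-base promoters of the genes that fell 2-fold. It was found in 1 of 165 that rose 2-fold, beside 0.376% of tested genes.

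Most genes of the ER and the secretory pathway were higher than on the arrays labelled R1881. Of 20 measured ER chaperones and folding enzymes 19 rose and 0 fell in limma, with a median of 0.91 (all genes -0.0087). DNAJB9, a co-chaperone of BiP, measured 511, 548 and 498 on the gedunin arrays and 112, 115 and 113 on the arrays labelled R1881. CRELD2, an ER foldase-like protein, measured 1524, 1589 and 1691 on the gedunin arrays and 412, 384 and 402 on the arrays labelled R1881. Both were clear of the other group, by 4.58-fold and 4.01-fold (limma adjusted p = 3.36e-11 and 5.64e-11). MANF, a secreted ER stress protein, rose by 1.81, SDF2L1 by 1.69 and PDIA4, a disulfide isomerase, by 1.69. HSPA5, which encodes BiP, measured 5299, 5149.6 and 5346 on the gedunin arrays and 2885, 3095 and 3085 on the arrays labelled R1881, and it rose by 0.80 ± 0.056 (log2, SE). The arrays labelled vehicle read 5218, 5499.5 and 5056 for HSPA5, a difference of 0.0027 ± 0.056 (SE, not called). DNAJB9 was lower against that label (-0.55). There the median of the 20 genes was 0.10, with 8 higher and 3 lower.

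ER-associated degradation, which pulls misfolded proteins back to the cytosol, had 13 of 14 members higher, with a median of 0.65. Against labelled vehicle 3 of the 14 were higher and 4 lower, with a median of 0.041. HERPUD1, a scaffold of the retrotranslocation complex, rose by 1.14, the channel protein DERL2 by 1.00, and the mannosidase-like EDEM3 by 0.79. Beside the arrays labelled vehicle HERPUD1 (-0.54) and EDEM3 (-0.68) were lower. UBE2J1, its membrane-bound ubiquitin-conjugating enzyme, rose by 0.74 and was lower than on those arrays too (-1.04). XBP1, the factor that IRE1 activates by splicing, rose by 0.42, and its splicing was not measured. It too was lower than on the arrays labelled vehicle (-0.27).

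Export from the ER rose almost throughout. In the COPII coat, which buds vesicles from the ER, SEC24D measured 209, 195 and 199.8 on the gedunin arrays and 30.8, 28.5 and 36.4 on the arrays labelled R1881. The second group was dim and the 3 SEC24D probe sets ran from 0.04 to 2.67, so the 6.35-fold rise is approximate. On the arrays labelled vehicle SEC24D read 224, 197 and 220.0, overlapping the gedunin arrays. Of the cargo receptors, TMED9 rose by 1.32, MCFD2 by 1.30, TMED5 by 1.05 and LMAN1, the partner of MCFD2, by 0.97. LMAN1 was lower than on the arrays labelled vehicle (-0.28). Of 26 COPII and export genes 23 rose and 0 fell in limma, against 5 higher and 10 lower beside the arrays labelled vehicle. COPI and Golgi genes, which serve the return path, had 20 of 25 higher and 0 lower in limma, led by COPG1 (1.23), ARF4 (0.95) and COPE (0.86). Probe sets of COPE ran from -0.023 to 0.86. Beside the arrays labelled vehicle 10 of the 25 were lower and 0 higher in limma, against 2 higher at an unadjusted p under 0.05.

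Entry into the ER followed the same pattern. SSR3, a translocon-associated subunit, measured 262, 245 and 269 on the gedunin arrays and 83.0, 59.6 and 97.6 on the arrays labelled R1881. SPCS3, of the signal peptidase, rose by 1.29, and SSR2 by 1.22. In N-glycosylation UAP1, which makes UDP-N-acetylglucosamine, rose by 1.64, and the oligosaccharyltransferase subunit STT3A by 1.26. Both UAP1 (-1.09) and SPCS3 (-0.22) were lower than on the arrays labelled vehicle. Of 34 genes 28 rose and 1 fell, SRP9 (-0.27). The median was 0.74 against the arrays labelled R1881 and 0.018 against those labelled vehicle.

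The ER stress response element, CCAAT and CCACG with 9 bases between, which ATF6 binds with NF-Y, was found in the 300-base promoters of 3 of the 165 genes that rose at least 2-fold, or 1.82%. It was in 12 of the 9563 tested genes (0.125%) and in 0 of 78 that fell. The 3 genes are CRELD2, HSP90B1 and SERP1, the last named for this match. HSP90B1, the ER form of HSP90, rose by 1.07. Here are 250 bases before the start of the first pair, from the same RefSeq table and build, with the element or its reverse complement in capitals.
CRELD2: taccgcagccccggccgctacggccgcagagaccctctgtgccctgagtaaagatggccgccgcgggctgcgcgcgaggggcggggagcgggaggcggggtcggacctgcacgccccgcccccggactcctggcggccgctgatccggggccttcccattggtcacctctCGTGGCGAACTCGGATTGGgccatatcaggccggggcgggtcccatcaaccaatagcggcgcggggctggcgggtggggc
HSP90B1: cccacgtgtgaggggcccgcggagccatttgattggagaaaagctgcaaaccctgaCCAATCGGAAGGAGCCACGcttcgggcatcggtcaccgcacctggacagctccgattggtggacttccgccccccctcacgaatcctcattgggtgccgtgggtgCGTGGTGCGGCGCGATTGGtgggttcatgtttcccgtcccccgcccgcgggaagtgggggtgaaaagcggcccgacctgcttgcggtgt
CRELD2 lies at chr22:49918384-49918633 and HSP90B1 at chr12:103930160-103930409, both on the plus strand.

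Many genes of the integrated stress response, in which ATF4 turns on amino acid genes, rose. ATF3, a stress-induced transcription factor, measured 612, 546 and 476 on the gedunin arrays and 90.6, 97.1 and 97.1 on the arrays labelled R1881. The groups did not overlap, and the rise was 5.71-fold (limma adjusted p = 1.38e-10). NUPR1 (1.44), DDIT3, which encodes CHOP (1.35), CEBPB (1.32) and TRIB3 (1.22) rose too, and ATF4 itself by 1.06 ± 0.06 (log2, SE). TRIB1 fell (-1.07), while it was higher than on the arrays labelled vehicle (1.03). Of 24 unfolded protein and integrated stress genes 16 rose and 2 fell, or 1 without the first or the third gedunin array or the first or the second labelled R1881. ASNS, asparagine synthetase, measured 2056, 2067 and 2000.4 on the gedunin arrays and 852, 769.8 and 810.1 on the arrays labelled R1881. MTHFD2 (1.06), PSAT1 (1.00) and SHMT2 (0.74), of serine and one-carbon synthesis, rose as well. GOT2 (-0.42) and AHCY (-0.36) fell, and the list stood at 10 higher and 3 lower of 19. Beside the arrays labelled vehicle 5 of the 19 were higher and 5 lower, with a median of -0.0029 in place of 0.27.

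Amino acid uptake and tRNA charging rose in part. Of 16 transporters 11 rose and 0 fell in limma. Beside the cystine antiporter they included SLC1A5 (0.97), a glutamine carrier, SLC38A1 (0.96) and SLC7A1 (0.79). Cytosolic tRNA synthetases rose in 10 of 16 members, with GARS1 at 1.26, CARS1 at 1.21 and SARS1 at 0.80. KARS1 fell (-0.22), and 2 fell without the third array labelled R1881. Initiation factors were even, at 6 higher and 6 lower of 32. EIF2S2, the beta subunit of eIF2, rose most (0.73) and EIF5 rose by 0.47, while EIF4B fell (-0.27). Without the second gedunin array 1 of them fell, and 2 without the first gedunin array or the second or the third labelled R1881.

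The element TGATGNAA, bound by ATF4 with C/EBP partners, was in 8 of the 165 promoters of genes that rose 2-fold (4.85%), in 2.25% of tested genes, in 3.67% of all 27305 promoters and in 0 of 78 that fell. For 2 of the genes named above, chosen because they hold a match, the 250 bases before the start show it in capitals (RefSeq, GRCh38.p14).
ASNS: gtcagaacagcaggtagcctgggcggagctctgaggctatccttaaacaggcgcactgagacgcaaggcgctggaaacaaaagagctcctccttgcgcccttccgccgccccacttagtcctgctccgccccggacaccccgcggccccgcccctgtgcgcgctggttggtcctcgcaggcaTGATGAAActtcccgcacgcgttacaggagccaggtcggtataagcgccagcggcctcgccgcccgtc
ATF3: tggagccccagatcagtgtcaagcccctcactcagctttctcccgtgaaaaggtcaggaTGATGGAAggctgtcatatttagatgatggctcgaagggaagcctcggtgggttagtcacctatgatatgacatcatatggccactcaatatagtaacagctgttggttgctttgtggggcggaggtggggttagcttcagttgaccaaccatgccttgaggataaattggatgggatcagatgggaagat
ASNS lies at chr7:97872409-97872658 on the minus strand and ATF3 at chr1:212565157-212565406 on the plus strand.

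Most proteasome genes rose, by small steps. Of 39 proteasome genes 28 rose and 3 fell, with a median of 0.29, and 24 were higher and 3 lower than on the arrays labelled vehicle. PSMD8, a lid subunit, rose by 0.98, the activator PSME4 by 0.74, PSMA3 of the core ring by 0.70 and the deubiquitinase PSMD14 by 0.67. PSME1, of the interferon-inducible cap, fell (-0.37), as did PSMA4 (-0.33). Of 23 ubiquitin genes 10 rose, among them UCHL3 (0.70) and UBE2S (0.54), and 2 fell, UBE2E3 (-0.78) and SUMO3 (-0.65). Against labelled vehicle 6 of the 23 were higher and 7 lower. SQSTM1, which carries cargo to autophagosomes, measured 2859.9, 2633 and 2746 on the gedunin arrays and 847, 865 and 860.0 on the arrays labelled R1881. GABARAPL1, a membrane tag of autophagosomes, rose by 1.09, and WIPI1 by 1.09 against a dim group. ATG3, which attaches that tag, fell (-1.21). With labelled vehicle as the control, WIPI1 (-1.88) and UCHL3 (-0.26) were lower and ATG3 (0.45) higher. Lysosomal ATP6V0B (0.89), of the proton pump, and GLA (0.68), alpha-galactosidase, rose, CTSH, a cathepsin, fell (-0.70), and the autophagy and lysosome list held 22 higher and 6 lower of 51.

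Most sterol genes were higher than on the arrays labelled R1881. INSIG1, the sterol-sensitive retention protein of SCAP, measured 973, 853 and 875 on the gedunin arrays and 238, 234 and 262 on the arrays labelled R1881. NPC1, which lets cholesterol out of lysosomes, rose by 1.84, IDI1 by 1.57, HMGCS1 by 1.51 and MSMO1 by 1.42. Probe sets of NPC1 ran from 0.28 to 1.84. Against the arrays labelled vehicle, NPC1 was higher (0.93), while INSIG1 was lower (-0.20). Of 25 members 17 rose and 3 fell, among them TM7SF2 (-0.42). Beside the arrays labelled vehicle 8 were higher and 8 lower, TM7SF2 (0.59) being among the higher ones, and the median was -0.033 in place of 0.47. Fatty acid genes had 9 of 16 higher and 0 lower in limma, led by LPIN1, ACSL1 (1.49) and the desaturase SCD (1.16). Beside the arrays labelled vehicle 4 of the 16 were higher and 5 lower, with a median of 0.047 in place of 0.26. The sterol element TCACNCCAC was in 3 of 165 promoters of genes that rose 2-fold (1.82%) and in 1.05% of tested genes. In polyamine metabolism, SAT1, which acetylates spermidine, rose by 1.18, ODC1, which makes putrescine, by 1.17, and SMS, spermine synthase, by 1.05. ARG2, which supplies ornithine, fell (-1.28). All 4 were lower than on the arrays labelled vehicle (-0.66, -1.30, -1.59 and -2.03).

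Genes that androgen is known to induce were, by label, mostly higher beside gedunin. Of 40 measured members 28 rose and 4 fell, with a median of 0.94. The members were chosen with earlier results of these data known, so these values describe the list and are no test. KLK2, a kallikrein protease, measured 947, 933 and 1140.3 on the gedunin arrays and 164, 145 and 160.0 on the arrays labelled R1881. KLK3, prostate-specific antigen, measured 6872, 7144 and 7629.9 on the gedunin arrays and 1375, 1424 and 1224 on the arrays labelled R1881. TMPRSS2, a membrane protease, measured 889, 892 and 1095 on the gedunin arrays and 191, 190.0 and 179 on the arrays labelled R1881. None of the 3 genes overlapped, and all 3 were higher again on the arrays labelled vehicle, at 3242, 3338 and 2913 for KLK2, 11947, 12290.0 and 11280.0 for KLK3 and 3220.5, 3298 and 2957 for TMPRSS2. KLK2 and KLK3 are close copies, and probe sets of KLK2 ran from 0.74 to 3.70. Beside the arrays labelled vehicle, 0 of the 40 were higher in limma and 36 lower (median -1.27). AZGP1, a secreted zinc-binding glycoprotein, rose by 2.08 against a dim group. NDRG1, a stress and differentiation gene, rose by 1.67, and KRT8, a luminal keratin, by 1.39. All 3 were lower than on the arrays labelled vehicle, with -1.57 for AZGP1, -2.18 for NDRG1 and -1.59 for KRT8.

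The 4 androgen-induced genes that fell were called lower against both labels. ACP3, prostatic acid phosphatase, measured 117, 117 and 141 on the gedunin arrays and 750.3, 759 and 768 on the arrays labelled R1881, and 801, 856 and 811 on the arrays labelled vehicle. Its falls were 6.11-fold and 6.62-fold. ADAMTS1, a secreted protease, fell by 1.06 on the log2 scale (-1.48 against labelled vehicle). STEAP1, a metalloreductase (-0.20 and -0.25), and TSC22D3, a leucine zipper gene (-0.25 and -0.39), moved less, and TSC22D3 lost its call without gedunin replicate 1 and without labelled R1881 replicate 2. ARHGEF26, a guanine nucleotide exchange factor that is on none of the lists, read 50.3, 40.0 and 45.2 on the gedunin arrays and 158, 206 and 195 on the arrays labelled R1881, with 149, 187 and 177 for vehicle. Its gedunin group was dim.

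Most genes that androgen is known to hold down were lower. Of 21 measured 15 fell and 1 rose, with a median of -1.37. This list too was chosen with earlier results of these data known, so its share and median are description only. Against the arrays labelled vehicle 10 of the 21 were higher and 7 lower, with a median of 0.17. CAMK2N1, an inhibitor of CaM kinase II, measured 59.0, 55.9 and 55.7 on the gedunin arrays and 2130.1, 2039.5 and 2195 on the arrays labelled R1881. PEG3, an imprinted zinc finger gene, measured 60.0, 57.3 and 50.7 on the gedunin arrays and 1573, 1460.0 and 1464 on the arrays labelled R1881. They fell 37.3-fold and 26.8-fold (limma adjusted p = 7.15e-14 and 9.92e-14), and both also lay under the arrays labelled vehicle, which read 131, 110.4 and 116 for CAMK2N1. UGT2B17, which glucuronidates androgens, measured 73.7, 73.7 and 72.0 on the gedunin arrays and 509, 513 and 606 on the arrays labelled R1881, and BCHE, butyrylcholinesterase, 80.9, 69.9 and 77.4 on the gedunin arrays and 529, 537 and 588 on the arrays labelled R1881. Those 2 stayed above the arrays labelled vehicle (1.30 and 1.46). UGT2B genes are near-identical, and the UGT2B15 probe sets ran from -2.08 to -0.28. GASK1B (-4.00), the Golgi mannosidase MANEA (-3.18) and DDC, aromatic amino acid decarboxylase (-2.80), fell past 4-fold as well. Probe sets of DDC ran from -2.80 to -0.25. LIFR, the 1 that rose (0.44), was dim in both groups and lost its call without the first or the third gedunin array or the second or the third labelled R1881. Set against labelled vehicle, GASK1B (0.40), MANEA (0.48) and UGT2B15 (1.11) were higher and LIFR (-2.83) was lower.

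Some transcription factors that act in the androgen response fell. HOXB13, a prostate homeobox factor, measured 489, 521 and 621 on the gedunin arrays and 1141, 1226 and 1073 on the arrays labelled R1881, and GATA2, a pioneer factor, 289, 284 and 266 on the gedunin arrays and 504, 467 and 494 on the arrays labelled R1881. Neither overlapped, at -1.08 ± 0.10 and -0.80 ± 0.06 (log2, SE). The coactivator NCOA2 fell (-0.71), as did the methyltransferase PRMT1 (-0.66). GRHL2, an epithelial factor, rose (0.28). Against the arrays labelled vehicle NCOA2 (0.56) and GATA2 (0.18) were higher and GRHL2 (-0.53) was lower. Of 29 members 8 fell and 3 rose, or 1 without the third gedunin array, against 7 lower and 7 higher beside labelled vehicle. The full palindrome of the androgen response element was in 1 of 27305 promoters of this length and in 0 of the 9563 tested genes.

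Outside the androgen lists, the largest falls were in genes of varied function. GRB10, an adaptor that dampens insulin receptor signalling, measured 353, 353 and 353 on the gedunin arrays and 2008, 2038 and 1941 on the arrays labelled R1881, with 3 equal deposited values in the gedunin group. AIDA, an inhibitor of axin-driven JNK activation, measured 1322, 1442 and 1492 on the gedunin arrays and 6671, 6519 and 6574 on the arrays labelled R1881. LTN1, the ligase that marks stalled nascent chains on ribosomes, measured 74.2, 72.7 and 79.7 on the gedunin arrays and 315, 321 and 306 on the arrays labelled R1881. None of the 3 genes overlapped, which the choice of the largest falls required, and the falls were 5.66-fold, 4.65-fold and 4.16-fold. CDK8, a kinase of the Mediator complex, measured 96.7, 64.3 and 77.8 on the gedunin arrays and 365, 379.8 and 468 on the arrays labelled R1881. SESN1, a sestrin that restrains mTORC1, measured 191, 226 and 214 on the gedunin arrays and 834, 826 and 871 on the arrays labelled R1881. OCLN, a tight junction protein, measured 137, 122 and 128 on the gedunin arrays and 460.3, 436 and 521 on the arrays labelled R1881. The same choice fixed the lack of overlap in these 3 genes. The arrays labelled vehicle read 129.7, 105 and 111 for OCLN and 68.6, 81.8 and 81.1 for LTN1, and both ranges overlap the gedunin arrays. GRB10 was higher than on those arrays (0.24).

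Further falls of this size were MMP16, a membrane matrix protease, at -3.01, and MYRIP, a melanosome transport adaptor, at -2.73. Both were dim on the gedunin arrays, and MMP16 probe sets ran from -3.01 to -0.80. The arrays labelled R1881 spread widely for MYRIP, at 188, 235 and 378. NDUFAF4, an assembly factor of respiratory complex I, measured 238, 238 and 256 on the gedunin arrays and 860.4, 926 and 885 on the arrays labelled R1881. RLN2, the hormone relaxin, measured 223, 219 and 239 on the gedunin arrays and 834, 888 and 912 on the arrays labelled R1881. SLC30A4, a zinc exporter, measured 74.7, 83.0 and 86.0 on the gedunin arrays and 289, 302 and 312 on the arrays labelled R1881. In each of these 3 genes the gedunin arrays lay wholly below. IL1RN, the interleukin 1 receptor antagonist, fell by 1.99 on the log2 scale, though its 5 probe sets ran from -1.99 to 0.036. NREP fell by 2.25, TMEM144 by 2.09 against a dim gedunin group, and ADAM2 by 1.86. Of these, IL1RN (0.45) and TMEM144 (0.57) were higher than on the arrays labelled vehicle.

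Cell cycle lists differed in direction. Replication and nucleotide supply held more falls than rises, with 24 of 51 lower and 1 higher, and a median of -0.19. RRM2, a subunit of ribonucleotide reductase, measured 130.5, 122 and 121 on the gedunin arrays and 259, 282 and 256 on the arrays labelled R1881. TYMS, thymidylate synthase, fell (-0.89), as did the purine enzyme PPAT (-0.77) and, of the replisome, GINS2 (-0.76) and MCM6 (-0.73). ORC3 was the 1 that rose (0.38), and 2 rose without the third array labelled R1881. Probe sets of TYMS ran from -0.89 to -0.078. Against the arrays labelled vehicle TYMS was higher (0.47). In that comparison 9 of the 51 were higher and 10 lower.

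Mitotic genes held more rises than falls. Of 64 measured 31 rose and 4 fell, with a median of 0.25 against the arrays labelled R1881 and 0.81 against those labelled vehicle, where 50 were higher. CKS2, a CDK-binding subunit, measured 1809.8, 1916 and 1837 on the gedunin arrays and 823, 823 and 822 on the arrays labelled R1881. HMMR, a spindle protein, measured 546, 544 and 514 on the gedunin arrays and 218, 249 and 266 on the arrays labelled R1881. CDC20, the activator of the anaphase-promoting complex, measured 224, 231 and 259 on the gedunin arrays and 122, 126 and 122 on the arrays labelled R1881. All 3 rose with no overlap, and NEK2 (1.03) and NDC80 (0.89) rose with them. CDK1, the mitotic kinase, went the other way at 301, 314 and 326 on the gedunin arrays and 647, 658 and 718 on the arrays labelled R1881, a fall of 2.15-fold. MAD2L1 (-0.39) and ZWINT (-0.39) also fell, and both were higher than on the arrays labelled vehicle (0.82 and 0.43). The share of cells in each phase was not measured.

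Among G1 genes 13 of 34 fell and 4 rose, while against labelled vehicle 6 were lower and 6 higher. MYC measured 314, 298 and 342 on the gedunin arrays and 938, 1009 and 946 on the arrays labelled R1881, a 3.03-fold fall (limma adjusted p = 7.14e-10). MXI1, which competes with MYC for MAX, also fell (-1.16), as did CCNG2 (-1.02, 0.78 against labelled vehicle), cyclin D1, CCND1 (-0.63), and cyclin E1, CCNE1 (-0.59, dim on the gedunin arrays). Of the inhibitors, CDKN1A, which encodes p21, measured 939, 874 and 929.6 on the gedunin arrays and 554, 584 and 554 on the arrays labelled R1881 and rose by 0.70 ± 0.055 (log2, SE). CDKN1B, or p27, rose by 0.26.

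Ribosome assembly and the mitochondrial ribosome held more falls than rises against both labels. Of 38 ribosome biogenesis genes 21 fell, and besides MYC these included IMP4 (-0.62), RRS1 (-0.60), TAF1D (-0.67) and NHP2 (-0.52). Against the arrays labelled vehicle 19 of the 38 were lower and 1 higher. Of 45 mitochondrial ribosomal proteins 22 fell and 3 rose, with MRPS27 at -1.03, MRPL19 at -0.83 and MRPL12 at -0.68. MRPL18 rose (0.41). Beside the arrays labelled vehicle 19 of the 45 were lower and 5 higher. Of cytosolic ribosomal proteins 7 of 52 were lower and 0 higher in limma, the largest -0.23 for RPL36. That share is near that of all genes called lower (13.4%), but bright genes were called more often and 1 of the 52 was dim in both groups. Of the 2991 brightest genes 766 were called lower and 953 higher. Without any test, the gedunin arrays lay wholly below those labelled R1881 for 34 of the 52 and wholly above for 1. Over all genes those shares were 19.2% and 18.4%, and the list median was -0.079. The limma count is unsteady: it was 26 with an intensity trend in the variance, and 4 without the second gedunin array or the first or the second labelled R1881. These genes have many processed copies in the genome.

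RNA and energy genes held more falls than rises, with most members not called. Of 50 spliceosome genes 19 fell, with HNRNPD at -0.91, TRA2A at -0.79 and SRSF6 at -0.69, and 4 rose, or 2 without the first gedunin array. SNRPA1, of the U2 particle, rose (0.77). Beside the arrays labelled vehicle 9 of the 50 were lower and 8 higher. In the respiratory chain 20 of 58 fell and 0 rose in limma, or 1 at an unadjusted p under 0.05, with complex I subunits NDUFB4 (-0.64) and NDUFV1 (-0.63) and cytochrome c1, CYC1 (-0.50). The median there was -0.10. Against labelled vehicle 8 of the 58 were lower and 3 higher. DNA repair genes had 13 of 43 lower and 0 higher in limma (8 lower and 9 higher against labelled vehicle), with BARD1 (-1.84), a partner of BRCA1 that was higher than on the arrays labelled vehicle (1.36), and the glycosylase UNG (-1.17, dim on the gedunin arrays). Histone genes had 12 of 43 lower, led by H1-2 (-0.63) and H2BC5 (-0.46), whose probe sets may read more than 1 copy.

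Stress and death genes moved in part. GADD45A, a growth arrest gene, measured 208, 232 and 196 on the gedunin arrays and 117, 112 and 133 on the arrays labelled R1881, a rise of 0.82 (log2). TNFRSF10B, a TRAIL receptor, rose by 0.77, and was lower than on the arrays labelled vehicle (-0.86). PMAIP1, which encodes NOXA, rose by 0.75. Of 22 p53-linked genes 7 rose, and SESN1 was the 1 that fell. Without the second array labelled R1881, 3 fell. Among BCL2 family and death receptor genes 9 of 35 rose, with TNFRSF21 (1.23) and BNIP3 (1.11) first. BID fell (-0.46). Immediate early genes other than ATF3 moved less. DUSP1, a MAP kinase phosphatase, rose by 0.87 and DUSP14 by 0.76, among 8 of 29 that rose.

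Inflammatory genes held near the shares of all genes (14.0% higher and 13.4% lower), with 3 of 25 NF-kappa-B targets higher and 2 lower. TNFAIP8 rose by 1.09, against a dim group, and NFKBIA, the inhibitor of NF-kappa-B, by 0.62, and both were lower than on the arrays labelled vehicle (-1.30 and -0.77). NFKB1 fell (-0.41, 0.38 against labelled vehicle). Of 28 KLF and clock genes 5 rose and 4 fell, also near those shares. KLF6 rose (1.06), and the period genes PER2 (-0.47) and PER3 (-0.45), both dim on the gedunin arrays, fell. Glycolysis and hypoxia-linked genes had 12 of 35 higher and 5 lower. VEGFA, the angiogenic growth factor, measured 842, 886 and 773 on the gedunin arrays and 287, 272 and 265 on the arrays labelled R1881. P4HA2 (1.34) and P4HA1 (0.70), which hydroxylate collagen, rose, while PFKM (-0.57, 0.27 against labelled vehicle), a phosphofructokinase, and LDHB (-0.41), a lactate dehydrogenase, fell.

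Of 40 tubulin and actin genes 20 rose, with TUBB2A, a beta tubulin, at 410.1, 415 and 408 on the gedunin arrays and 156, 155 and 155 on the arrays labelled R1881. CTTN, cortactin, rose by 0.80 and TUBB3 by 0.71, while TUBB fell (-0.30). EGF, a ligand of the EGF receptor, measured 68.3, 61.4 and 69.2 on the gedunin arrays and 19.2, 16.8 and 17.5 on the arrays labelled R1881, a 3.72-fold rise against a dim group. ID2 (1.12), ID1 (0.99) and SMAD1 (0.71), of BMP signalling, rose. The WNT receptor FZD3 (-1.24, dim on the gedunin arrays) and the NOTCH ligand JAG1 (-1.16) fell. WNT, NOTCH, TGF-beta and BMP genes together had 8 of 55 higher and 10 lower, or 6 lower without the first gedunin array, near the shares of all genes (14.0% and 13.4%). PIK3R1, the regulatory subunit of PI3 kinase, fell (-1.19), as did PIK3R3 (-0.70, 0.79 against labelled vehicle) and DEPTOR (-0.64), an inhibitor of mTOR. RHEB, which activates mTORC1, rose (0.55). In that signalling list 9 of 41 rose and 8 fell.

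**Figure D3:**
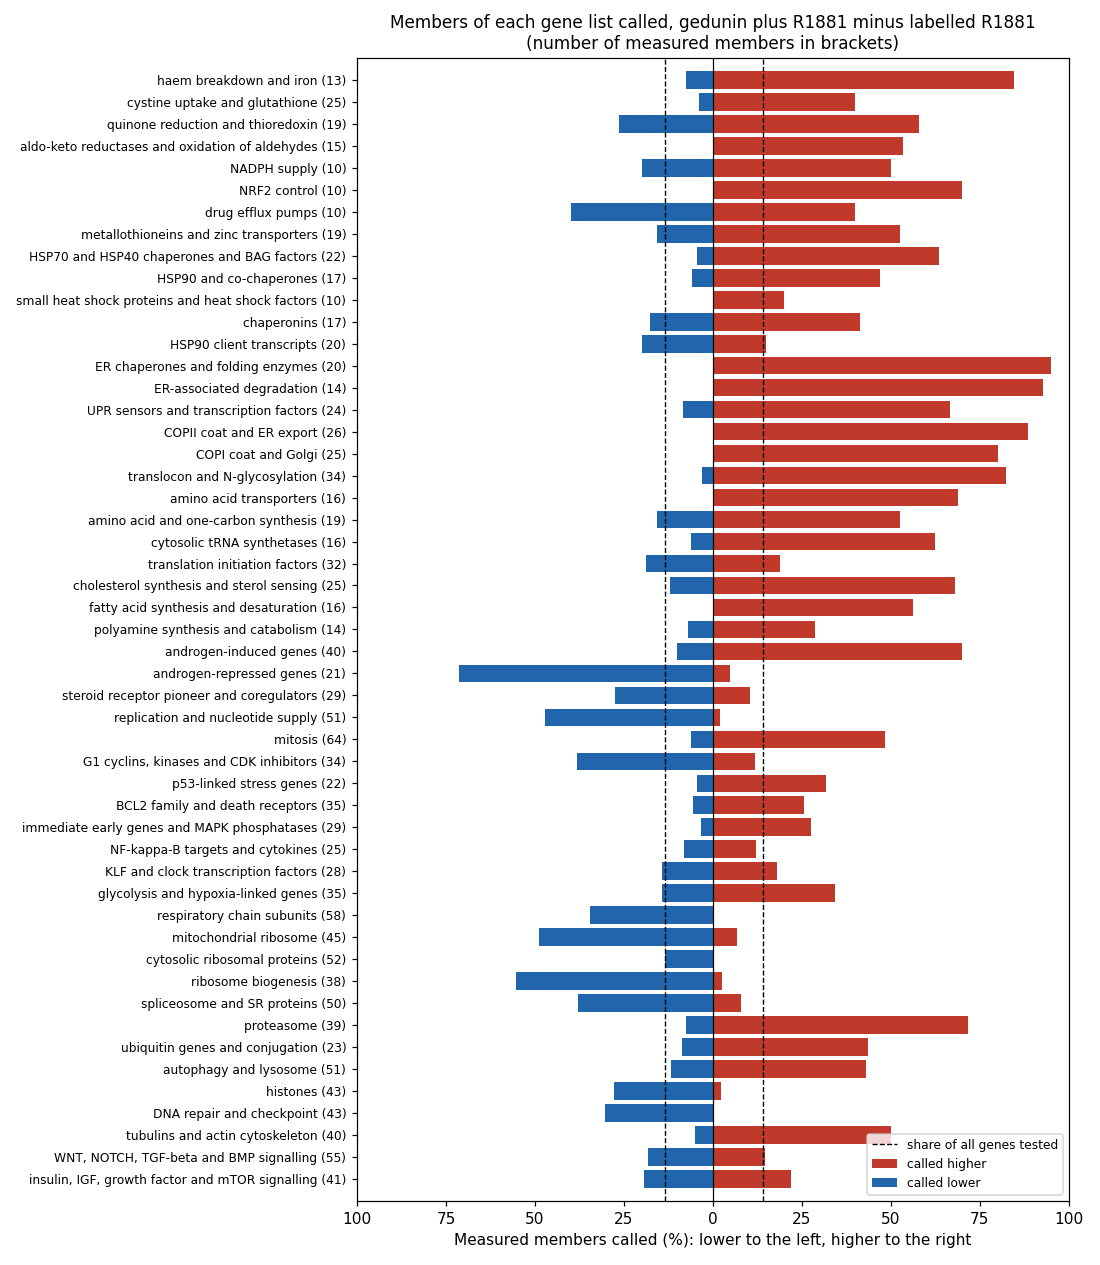
Bars give the percent of measured members of each gene list that were called higher (red, to the right) or lower (blue, to the left) on the gedunin arrays than on those labelled R1881, and dashed lines mark the 14.0% and 13.4% of all genes. ER chaperones reach 95% higher and androgen-repressed genes 71.4% lower, while HSP90 clients lie near both lines. Bright genes were called more often, and the lines do not allow for brightness. The lists were chosen with earlier results of these data known.

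The medians of some lists were set side by side for both control labels. ER chaperones, COPII, COPI, the translocon and the androgen lists had medians that shrank or turned against the arrays labelled vehicle. The COPI median was 0.50 and -0.13, and the COPII median 0.57 and -0.088. NRF2 control stood at 0.57 and 0.53, the proteasome at 0.29 and 0.25, and HSP70 and HSP40 genes at 0.30 and 0.39. The values share the gedunin arrays, and the difference between the labels was not tested here.

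**Figure D4:**
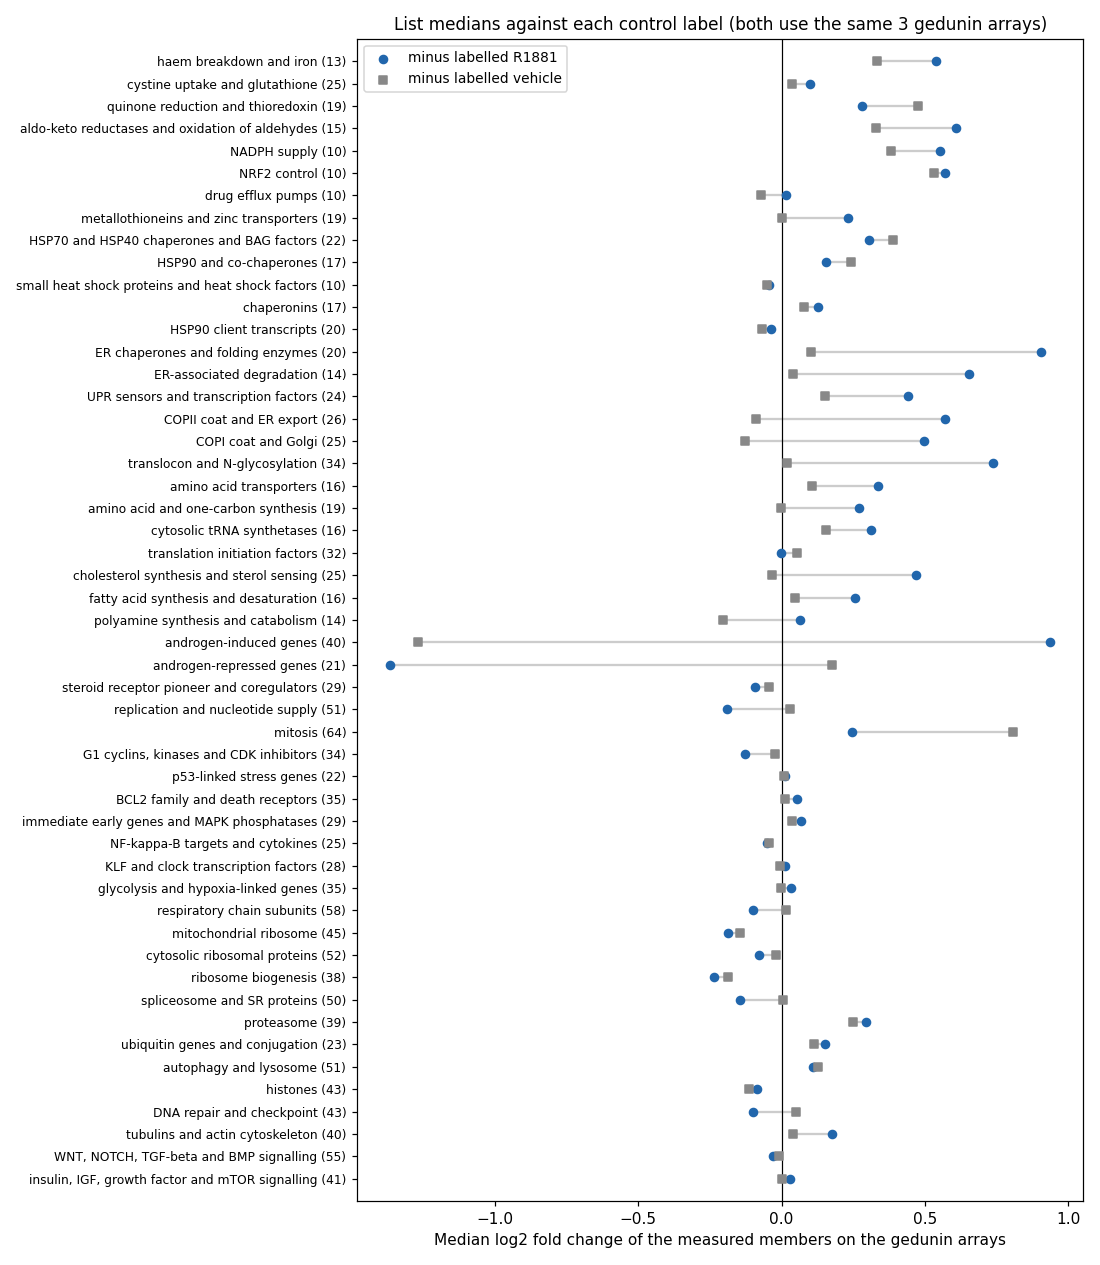
Points give the median log2 fold change of the measured members of each list on the gedunin arrays, in blue against the arrays labelled R1881 and in grey against those labelled vehicle. The points lie far apart for androgen-induced (0.94 and -1.27) and androgen-repressed genes, and close together for NRF2 control and proteasome genes. The lists were chosen with earlier results of these data known.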

How the data were processed

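Total RNA was taken with Trizol and hybridised as biotinylated cRNA to Affymetrix arrays, 1 per culture, per the labels' protocols. The authors deposited linear intensity values for 22277 probe sets on 9 arrays, and RMA, which corrects background, normalizes across arrays and summarises probes, is named in the submitters' processing notes. RMA forces arrays to a common distribution, so a change in total RNA per cell cannot be seen. The deposited intensity was converted to log2. All 3 values of a group were equal for 105 genes with gedunin, 57 labelled R1881 and 98 labelled vehicle. On the gedunin arrays these include GRB10, UGT2B15 and SAT1. Such ties show no spread within that group, which lowers the SE of those genes, and their cause was not tested. Each of 11963 genes with its own symbol in the platform annotation was represented by the probe set of highest mean. Left out were 62 control probe sets, 1043 with several symbols and 2108 with none. Another 12, whose gene identifier RefSeq does not hold, were kept under their platform symbol.

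One coefficient per group was fitted over all 9 arrays with limma 3.58.1 in R 4.3.3 (lmFit, contrasts, eBayes without trend, two-sided, Benjamini-Hochberg over all genes, threshold 0.05). The number of arrays limits the precision, and p-values measure the spread between these samples. In simulated data with 50 changed genes per size, 38% of 1.2-fold, 90% of 1.5-fold and 100% of 2-fold changes were called. Far fewer genes were changed there than the 27.4% called in these data, which makes the adjusted threshold stricter there. Those shares therefore do not give the recovery in the real comparison. Named genes were the 25 largest rises and falls without overlap, up to 5 called members of each list in each direction, and 22 fixed genes, of which 16 were measured. The members and lists were chosen with earlier results of these data known. Lists were described by counts and medians, without a test of their own. Alternatives were the 6 arrays alone, the replicate number as a block, an intensity trend, array weights, removal of dim genes, averaged probe sets, median centring, a pseudocount of 16, and leaving out each array. Promoters came from RefSeq (GRCh38.p14), for 9563 of the genes tested. No scan date or batch was given in the sources used here.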

Additional observations from a re-analysis of the deposited data

How the results depend on the processing

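The count of 3277 called genes lay between 3162 and 3520 when the fit, the filter, the probe set rule or the scale was changed, and between 2823 and 3252 when 1 array was left out. Centring each array on its median gave 1773 higher and 1464 lower. Same-numbered arrays of the gedunin group and the group labelled R1881 deviated from their group means with correlations of -0.11, 0.023 and 0.042, so the numbers were not taken to pair them, and the fit with the replicate number as a block called 3210. No alternative reversed the sign of a called change among the named genes against the arrays labelled R1881. Other genes, and changes against the arrays labelled vehicle, were not checked for sign. Of 373 named genes 333 kept their side of the threshold in every alternative that tested them, 40 lost their call in at least 1, and 12 were not in the fit with dim genes removed. Of 112 list counts 28 moved by over 1.5 times in at least 1 alternative. The count of lower ribosomal protein genes, 7, was 26 with an intensity trend, 16 with the pseudocount, 12 with averaged probe sets and 11 with dim genes removed. The 6 lower initiation factors became 3 with centring. The cause was not tested. With 3 arrays a group, differences near 1.2-fold were often missed in simulation, where far fewer genes were changed than were called here. How often such differences were missed in these data was not tested. Dim genes give compressed folds, probe sets of near-identical genes may share signal, and no protein was measured. Whether the labels R1881 and vehicle are exchanged, and whether the arrays labelled R1881 stand for 6 h or 24 h, cannot be settled from these values.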

Other observations

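Gene symbols that share a stem, 51 stems with at least 20 measured genes, give a view that does not rest on the chosen lists. The counts below stand beside 14.0% of all genes called higher and 13.4% called lower. SEC genes, of secretion, had 14 of 24 higher and 0 lower in limma, and 0 lower at an unadjusted p under 0.05, with a median log2 fold change of 0.45. UBE genes, ubiquitin-conjugating enzymes, had 8 of 24 higher and 1 lower, and RNF genes, mostly ubiquitin ligases, 14 of 45 higher and 5 lower. RBM genes, RNA-binding proteins, had 9 of 27 lower and 1 higher. POLR genes, subunits of RNA polymerases, had 8 of 26 lower and 2 higher, and NUP genes, of the nuclear pore, 9 of 21 lower and 4 higher. Among 235 zinc finger genes (ZNF) 42 were lower and 12 higher, while 238 solute carriers (SLC) had 44 higher and 25 lower. For SLC these are 18.5% and 10.5%, not far from the shares of all genes. KRT genes, keratins, had 5 of 34 higher and 0 lower in limma, against 1 lower at an unadjusted p under 0.05. Their share called higher, 14.7%, is near that of all genes. Of 47 olfactory receptor genes (OR) limma called 0 in either direction, and 2 were higher and 2 lower at an unadjusted p under 0.05. Beside labelled vehicle, higher and lower counts were 4 and 5 for SEC, 6 and 7 for UBE and 16 and 3 for RNF. They were 2 and 2 for RBM, 5 and 5 for POLR, 9 and 4 for NUP and 26 and 24 for ZNF. SLC genes had 29 and 31, and KRT genes 1 and 5. The stems were formed from symbols after the data were seen and overlap with the lists above.

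Of 3151 probe sets that carry several gene symbols or none, 249 were higher and 374 lower on the gedunin arrays than on those labelled R1881, and they name no gene here. Of 1706 genes with several probe sets of which at least 1 was called, 9 had probe sets called in both directions.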
